A study of Mus musculus with 30 samples.

Results

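Autosomal transcripts were compared between monozygotic mouse co-twins, that is, between blastocysts grown from the separated sister blastomeres of 1 embryo. The members are the 20 of 30 arrays whose titles carry GM501 or SAGE 1step, which form 10 pairs with 1 twin in each medium, and on them 16899 autosomal genes of 18038 genes tested. GM501 twins (n = 10) and SAGE 1-Step twins (n = 10) were cultured singly in these 2 media for assisted reproduction, after 2-cell embryos had been divided; the KSOM(aa) controls (n = 10) were never divided and were grown singly in a mouse embryo medium. All blastocysts came from zygotes of B6C3F1 × CD1 matings after hormonal stimulation, had reached the 2-cell stage in KSOM(aa), and were lysed 1 by 1 at 4 days post coitum after 96 h of culture. Twins held about 40 to 50 cells and controls about 80, per the labels, so controls differed from twins in medium, division and cell number together. The labels give no number of matings or culture days, and p-values therefore refer to variation among these embryos only. The question is which transcript levels 2 sister blastocysts have in common when the embryos differ from one another and the sisters do not share a medium.

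B6C3F1 is the hybrid of the C57BL/6 and C3H strains and CD1 is an outbred stock, so that each embryo of such a mating carries its own combination of alleles while both sisters carry the same one. A blastocyst consists of trophectoderm, an outer epithelium that pumps fluid into the cavity, and of an inner cell mass that divides into epiblast and primitive endoderm. Sister blastomeres also inherit a common maternal cytoplasm, and they share the time and handling of their embryo until the separation.

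The signals are log2 values, so 1 unit is a 2-fold difference in signal and levels of different genes cannot be compared. Blastocyst markers were present: Krt18, a trophectoderm keratin, ran from 16.62 to 18.06 in the 20 twins and from 17.96 to 18.10 in controls, and Cdx2, a trophectoderm transcription factor, from 10.45 to 12 in twins and from 11.50 to 11.96 in controls. Sox17, a primitive endoderm factor, did not exceed 5.19 in twins and 5.15 in controls and fell below the level filter. Of 19 cumulus cell markers, 16 were on the array, and 6 of these passed the filter. The mean log2 signal of the 16 was 4.27 to 4.92 in GM501 twins, 4.28 to 4.91 in SAGE twins and 4.30 to 4.51 in controls. Of 19 oviduct, blood and immune markers, 11 were on the array and averaged 5.46 to 5.85 in GM501 twins, 5.47 to 5.84 in SAGE twins and 5.43 to 5.68 in controls. Neither list had a called autosomal gene among its 6 and 5 tested autosomal members. The 6 tested cumulus genes followed the array median at a median r of 0.85, with 5 of 6 above 0. Array medians were 4.59 to 5.28 in GM501 twins, 4.57 to 5.22 in SAGE twins and 4.59 to 4.69 in controls. The first principal component held 41.7% of the variance of the twin arrays and correlated with the array median at r = -0.92. Earlier work on these values had parted the pairs into numbers 1 to 6 and 7 to 10 by array median, and no label names that split. Array medians do not part the sets cleanly: they were 4.81 to 5.28 in the 12 arrays of pairs 1 to 6, and in the 8 arrays of pairs 7 to 10 they were 4.57 to 4.67 but for 1 SAGE array, the twin of pair 8, at 5.12, above 9 of the 12. The split is treated here like a batch: the covariances, the distribution of r and the counts of called genes are given over all 10 pairs and again within the 2 sets, with genes centred within medium and set. The plot by gene list gives the medians of the lists both ways.

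Co-twins resembled each other across the autosomes. With each gene centred within its medium, the covariance averaged over genes was 0.150 ± 0.078 log2 units squared in co-twins (SD, n = 10), with values from 0.0598 to 0.273 and all 10 above 0. In the 90 mismatched couples of a GM501 and a SAGE twin it averaged -0.0167, ran from -0.246 to 0.277, and lay above 0 in 42. Centring fixes the mismatched mean at a fixed negative fraction of the co-twin mean, so the test rests on the pairing itself. The difference of 0.167 was not reached by any of 100000 random pairings (one-sided permutation p = 1e-05, the smallest they can give). Without pair 8 the difference was 0.177. Co-twin covariance averaged over genes came to 43.5% of the variance averaged over genes.

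Much of the resemblance was common to whole sets of pairs. Mismatched couples from the same set averaged 0.0964 (n = 42, 38 above 0) and mismatched couples from different sets -0.116 (n = 48, 4 above 0). The values of co-twins and of same-set strangers overlapped widely. Once genes were centred within medium and set, co-twins kept a mean covariance of 0.0346 ± 0.0231 (SD, n = 10, all above 0) against -0.00824 in mismatched couples of the same set (n = 42, 14 above 0). The difference of 0.0429 had an exact one-sided p of 0.000289 over all 17280 pairings within sets, and without pair 8 it was 0.0390. Between-set differences thus held 77.0% of the co-twin covariance, and the part within sets came to 10.0% of the variance averaged over genes. By Pearson correlation across genes, the co-twin was the closest partner for 6 of 10 GM501 and 7 of 10 SAGE twins over all pairs. Within sets, among partners of the same set, it was the closest for 8 GM501 and 7 SAGE twins.

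**Figure D1:**
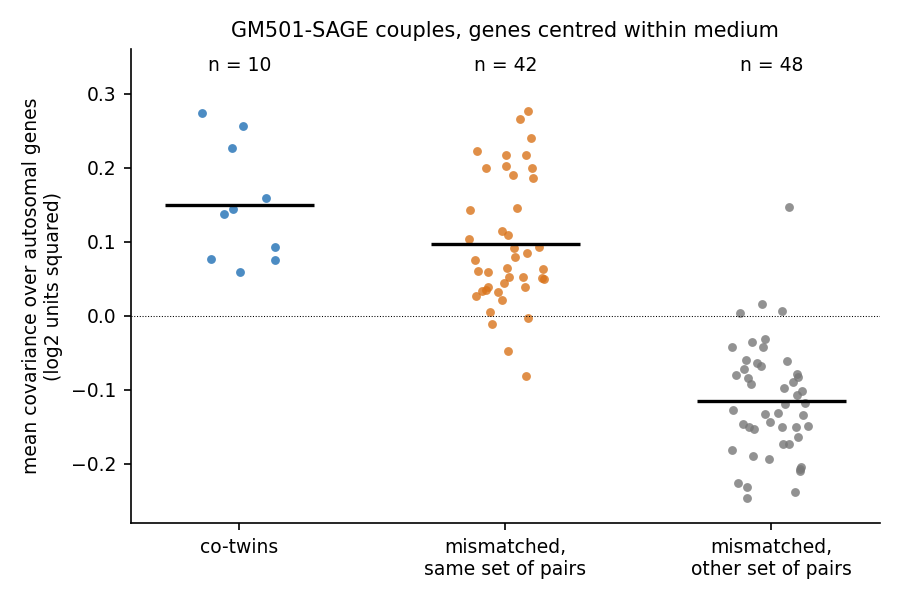
Mean covariance over 16899 autosomal genes (vertical axis, log2 units squared) in co-twins, in mismatched couples of the same set of pairs and in mismatched couples of the other set; each point is 1 couple and each bar a mean. All 10 co-twin couples lie above 0, and the means are 0.150 in co-twins, 0.0964 in the same set and -0.116 in the other set.

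Gene by gene, resemblance was graded rather than all or none. The Pearson correlation between co-twins over the 10 pairs had a median of 0.45 and was above 0 in 14509 genes (85.9%). Within sets the median was 0.19, with 11638 genes (68.9%) above 0. Co-twins differed by a median of 0.30 log2 units per gene and mismatched couples by 0.46. These genes share their arrays and are not independent, so the correlations are descriptions.

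**Figure D2:**
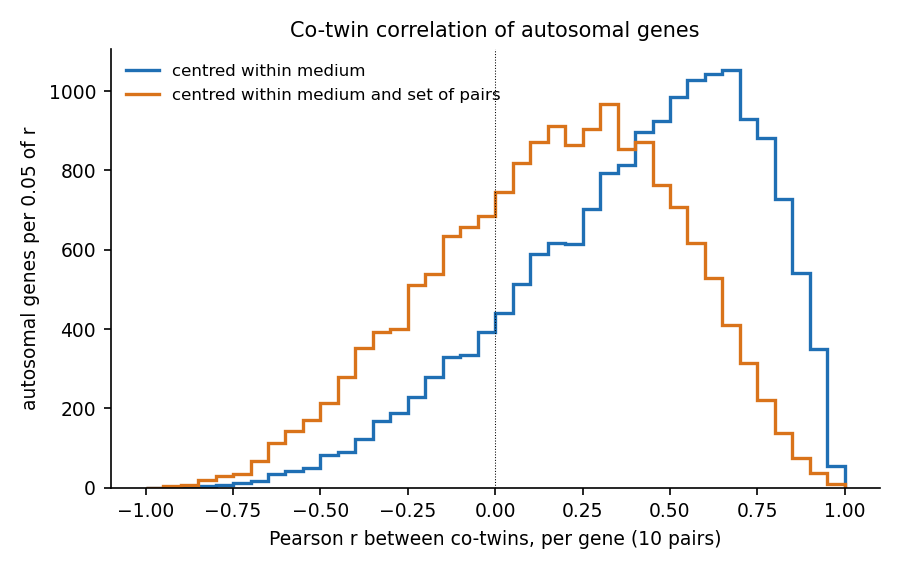
Number of autosomal genes (vertical axis, per 0.05 of r) by the Pearson correlation of their signals between co-twins over 10 pairs (horizontal axis), with genes centred within medium and with genes centred within medium and set of pairs. The median is 0.45 with the first centring and 0.19 with the second.

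A gene was called when pairs differed by more than co-twins did, by limma's moderated F test with medium in the model at an adjusted p under 0.05. Called genes numbered 4374 of 16899 (25.9%), with 7165 at an unadjusted p under 0.05. With the set as a term, 51 were called (0.302%), all of them among the 4374, and 2162 had an unadjusted p under 0.05. The share over all pairs was 33.5% for X-linked and 74.2% for Y-linked genes, and within sets it was 1% and 67.7%. The autosomal share varied little along the genome, from 23.4% of the genes of chromosome 1 to 28.2% of those of chromosome 2. It was higher for bright genes, at 42.5% in the brightest and 10.5% in the dimmest of 5 equal groups by level. Called genes followed the array median more closely, with a median absolute correlation of 0.71 against 0.50 in the others, and were both positively (2401) and negatively (1973) related to it. In 1199 of the 4374 (27.4%) all arrays of pairs 1 to 6 lay on 1 side of all arrays of pairs 7 to 10, against 79 of 12525 other genes (0.631%). With the array median as a covariate 1467 genes were called, and with the first principal component 148. Without pair 10 the count was 2907 over all pairs and 27 within sets, and without pair 8 it was 5860 and 71. With the signal of Xist, the X-inactivation RNA of female cells, as a covariate, 10 genes were called within sets.

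Oxidative phosphorylation was the most widely shared function among the lists examined. Of 84 nuclear-encoded subunits of the respiratory chain and ATP synthase, 56 were called (66.7%, against 25.9% of all autosomal genes) and their median co-twin r was 0.78. Ndufb3, a subunit of complex I, stood at a lowest, median and highest signal of 13, 14.32 and 14.75 in GM501 twins and 13, 14.58 and 14.97 in SAGE twins, against 13.30, 13.72 and 14.06 in controls. Its co-twins correlated at r = 0.96 and differed by a median of 0.14 log2 units, against 1.10 between mismatched twins (adjusted p = 0.000241). The 12 arrays of pairs 1 to 6 lay between 14.14 and 14.97 and the 8 arrays of pairs 7 to 10 between 13 and 13.50, without overlap. Ndufa4 and Ndufa8, which also belong to the respiratory chain, had r = 0.90 and 0.94. Within sets the list's median r was 0.24 and none of its members was called. Of the 84 genes, 67 ran in the direction of the array median.

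Mitochondrial translation followed the same course. Of 80 mitochondrial ribosomal protein genes, 42 were called (52.5%), the median r was 0.65, and within sets it was 0.32 with 68 of 80 above 0. Their median level falls in the fourth group by level, where 35.2% of genes were called. Mrpl15, Mrps33 and Mrpl55 had r = 0.94, 0.92 and 0.91, and within sets 0.73, 0.52 and -0.26. Cytosolic ribosomal proteins had a median r of 0.66 and 12 of 41 called (29.3%); their median level of 14.1 falls in the brightest of the 5 groups, where 42.5% of genes were called, as does that of the oxidative phosphorylation list.

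Lists of carbon and lipid metabolism differed in their share of called genes. Glycolysis had 8 of 14 genes called (57.1%, median r 0.69), with Tpi1, Gapdh and Pkm at r = 0.83, 0.80 and 0.78 and within sets at 0.37, 0.27 and 0.41. Pkm was not called without pair 10 (adjusted p = 0.112). The tricarboxylic acid cycle had 7 of 17 (41.2%), led by Ogdh, a subunit of oxoglutarate dehydrogenase, at r = 0.90. That share is near the 42.5% called in the brightest of the 5 groups by level, where the list's median level of 11.17 falls. Fatty acid synthesis had 6 of 12 (50%), among them Acly, which makes cytosolic acetyl-CoA, at r = 0.78 and Fasn, the fatty acid synthase, at r = 0.73. Within sets Acly had r = 0.06 and Fasn r = -0.06, while the median of the 12 genes was 0.33, with 9 above 0. Cholesterol synthesis had 6 of 15 called (40%), and Srebf2, the transcription factor that drives the pathway, had r = 0.93. Uptake, storage and oxidation of lipids was called in 2 of 15 genes (13.3%). Apart from the tricarboxylic acid cycle, the median levels of these lists fall in the fourth group, where 35.2% of genes were called. None of these differences was tested.

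Genes that ATF4 activates when amino acids are short were called in 18 of 30 cases (60%, median r 0.62), and 26 of 30 ran against the array median. Their median level of 10.1 falls at the upper edge of the fourth group by level, where 35.2% of genes were called. Within sets the list's median r was 0.27 and none of its members was called. Sesn2, a sensor that restrains TORC1, had r = 0.92 and Slc7a5, a leucine transporter, r = 0.81. Slc7a5 stood at 7.29, 9.12 and 12.22 (lowest, median, highest) in GM501 twins and 7.14, 10.03 and 12.34 in SAGE twins, against 11.58, 12.21 and 13.15 in controls. Pairs 1 to 6 reached at most 10.19 and pairs 7 to 10 began at 10.53, so its sets did not overlap, and within sets r was 0.17. Ddit3, which encodes CHOP and belongs to the same list, went the other way with r = -0.39. Ddit3 has 2 clusters on the array, and the brighter, used here, bears a name that marks it as unmapped. The other cluster was not examined by itself. Genes of the unfolded protein response, at a median level in the fourth group too, were called in 6 of 16 cases (37.5%). Their median r within sets, 0.43, was among the higher ones, with 15 of 16 above 0.

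Genes of the trophectoderm's epithelium were also often called over all pairs. Of 19 genes for cell junctions and the blastocyst cavity, 11 were called (57.9%), the median r was 0.68, and all 19 ran against the array median. Their median level of 10.21 falls in the brightest of the 5 groups, where 42.5% of genes were called. Within sets the list's median r was 0.24 and none of its members was called. Cldn4, a tight junction claudin, stood at 11.45, 12.51 and 16.03 in GM501 twins and 10.59, 13.50 and 16.31 in SAGE twins, against 15.01, 15.96 and 16.35 in controls. Twins ranged over more than 5 log2 units and controls over less than 2. Co-twins correlated at r = 0.93 (adjusted p = 0.000214) and differed by a median of 0.51, against 2.36 between mismatched twins. Within sets r was 0.77, and the test did not call the gene (adjusted p = 0.354). Cdh1, the epithelial cadherin, had r = 0.87 and F11r, a junctional adhesion molecule, r = 0.92. Within sets their r was 0.53 and 0.47, and neither was called.

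DNA methylation and its regulators were called in 7 of 14 genes (50%). The list's median level falls in the fourth group by level, where 35.2% of genes were called. Within sets its median r was 0.18 and none of its members was called. Trim28, the corepressor that protects imprints through zinc finger proteins, had r = 0.84 over all pairs and -0.20 within sets. Imprinted genes themselves were called in 6 of 24 cases (25%), and their median r within sets was 0.03. Cystatins and stefins, inhibitors of cysteine proteases many of which lie in a cluster of close copies, were called in 9 of 17 cases (52.9%). Their median level falls in the middle group, where 25.6% of genes were called. Within sets their median r was 0.17 and none was called. Olfactory and vomeronasal receptor genes, which are seldom expressed outside sensory tissue, had 37 of 171 called (21.6%). Their median level of 5.10 falls in the dimmest of the 5 groups by level, where 10.5% of genes were called. Of the 171, 167 ran with the array median.

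**Figure D3:**
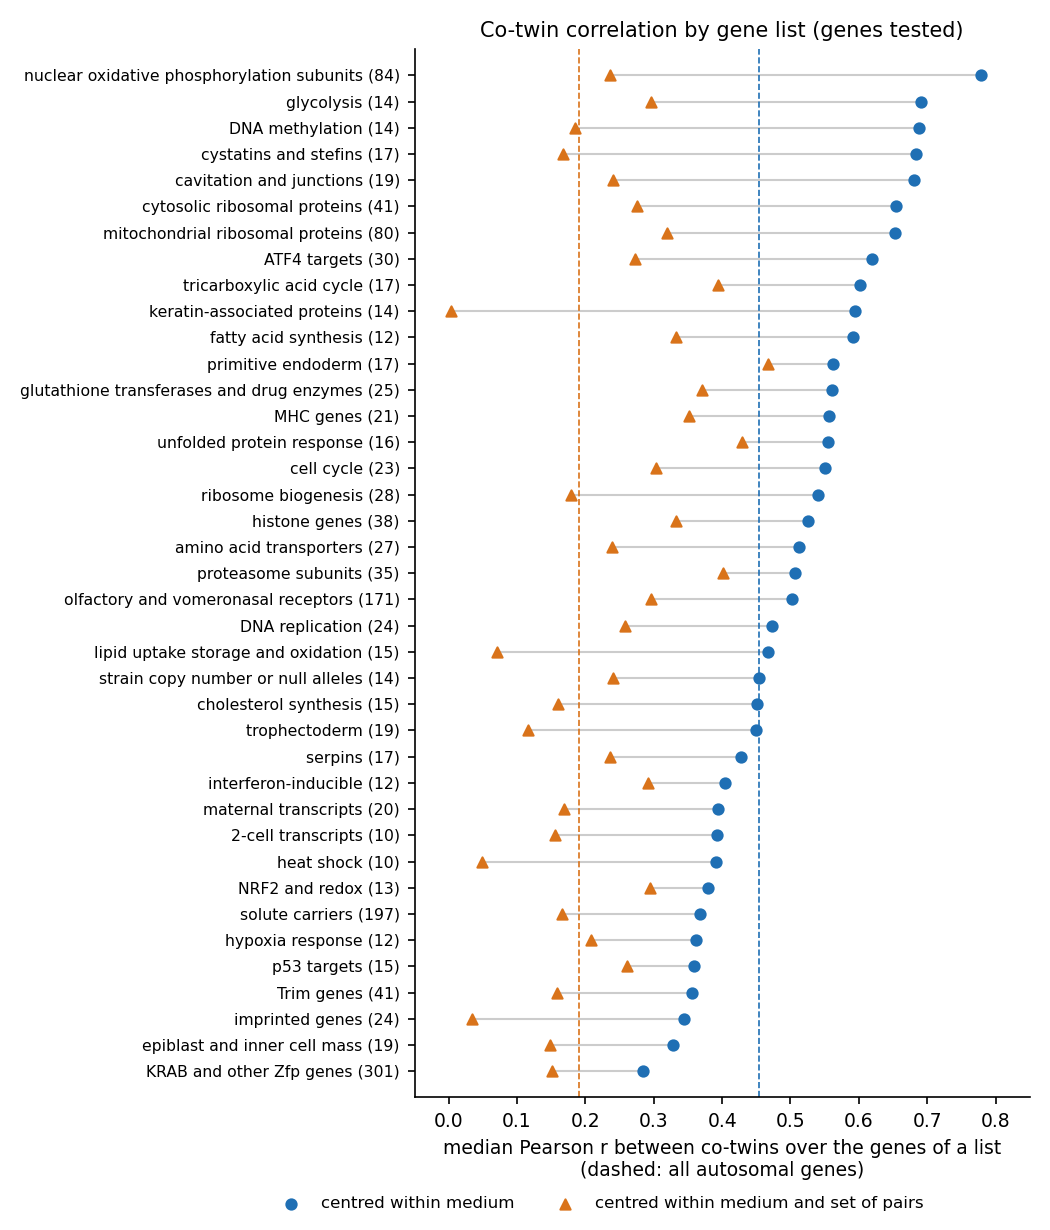
Median Pearson correlation between co-twins (horizontal axis) over the genes of each list with at least 10 tested autosomal genes, the number of genes standing in parentheses; circles are centred within medium and triangles within medium and set of pairs. Oxidative phosphorylation has the highest circle at 0.78 and primitive endoderm the highest triangle at 0.47, while the dashed lines mark 0.45 and 0.19 for all autosomal genes.

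Leaving aside predicted and small RNA genes, 12 genes had the smallest p over all pairs. Cwc22 and Baiap2l1 led them and were also called within sets, as were Gm14444, Gm14406 and Mir7669 among the genes left aside, and these are described further on. Dync1h1, the heavy chain of cytoplasmic dynein, followed. Dync1h1 stood at 8.62, 9.74 and 12.16 in GM501 twins and 8.58, 10.26 and 12.69 in SAGE twins, against 11.92, 12.37 and 12.82 in controls. Arrays of pairs 1 to 6 lay from 8.58 to 10.27, those of pairs 7 to 10 from 11.68 to 12.69, close to controls. Co-twins correlated at r = 0.96 (adjusted p = 6.47e-05) and within sets at 0.63, where the gene was not called (adjusted p = 0.319). Fgfr2, a receptor for fibroblast growth factors in trophectoderm and primitive endoderm, stood at 9.64, 10.23 and 12.51 in GM501 twins and 9.61, 10.71 and 12.65 in SAGE twins, against 11.75, 11.98 and 12.36 in controls. Its arrays of pairs 1 to 6 reached 10.85 at most and those of pairs 7 to 10 began at 11.76, and co-twins correlated at r = 0.96 (adjusted p = 0.000159). Agrn, the matrix proteoglycan agrin, Srcap, a chromatin remodeller, Sdhaf4, an assembly factor of succinate dehydrogenase, Iqgap3, a scaffold of the actin cytoskeleton, Sh3tc1, Fastk, Lama5, a laminin chain, and Sec24c, a coat protein of vesicles leaving the endoplasmic reticulum, had r from 0.93 to 0.98. None of these 10 genes, Dync1h1 and Fgfr2 included, was called within sets.

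Lineage genes were divided. Primitive endoderm genes were called in 5 of 17 cases (29.4%), near the share of all genes, yet their median r within sets was 0.47, the highest of all lists with at least 10 genes, with 16 of 17 above 0. Lama1, Lamb1 and Lamc1, the 3 chains of the laminin that this tissue lays down in its basement membrane, had r = 0.86, 0.78 and 0.82, and within sets 0.67, 0.58 and 0.62. Lama1 stood at 7.21, 8.31 and 11.82 in GM501 twins and 7.42, 8.41 and 11.89 in SAGE twins, against 9.82, 11.86 and 12.73 in controls. No member of the list was called within sets, and their common trend is a description of 10 pairs. The exception was Gata6, the transcription factor that specifies the lineage, with r = -0.29 and adjusted p = 0.747. Gata6 stood at 10.45, 11.96 and 12.67 in GM501 twins and 10.61, 11.76 and 12.22 in SAGE twins, against 11.27, 12.02 and 12.23 in controls.

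Trophectoderm genes were called in 6 of 19 cases (31.6%), with a median r of 0.45 over all pairs and 0.12 within sets. Krt8, a keratin, and Lrp2, an endocytic receptor, had r = 0.82 and 0.83. Cdx2 had r = 0.27 and was not called (adjusted p = 0.237). Epiblast and inner cell mass genes were also called in 6 of 19 cases, with a median r of 0.33. Pou5f1, which encodes OCT4, was called over all pairs (r = 0.60, adjusted p = 0.0338) and in 7 of 10 fits without 1 pair (adjusted p up to 0.102), and had r = -0.21 within sets. Nanog, an epiblast factor, stood at 10.12, 13.42 and 14.70 in GM501 twins and 10.71, 12.68 and 13.51 in SAGE twins, against 12.74, 13.73 and 15.17 in controls. Nanog's co-twin r was 0.05 (adjusted p = 0.368), and co-twins differed by a median of 0.81 log2 units, against 1.17 between mismatched twins. Sox2 had r = 0.33 (adjusted p = 0.217) and within sets 0.61, but its rank (Spearman) correlation over all pairs was -0.14. Its GM501 arrays included 1 at 8.92, with the next at 7.43. Bmp4, a signalling ligand of the epiblast, was called within sets (r = 0.85, adjusted p = 0.037), but in 4 of 10 such fits without 1 pair (adjusted p up to 0.346). Over all pairs its adjusted p was 0.012, and without pair 5 it was 0.135.

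The 51 genes called within sets had another character. Of these, 26 were named genes, and 25 were predicted genes, pseudogenes or small RNAs, a class that made up 5950 of all 16899 autosomal genes. The genes described from here to the paragraph on control embryos were picked after their values were seen, mostly by their p within sets. Of the 51, 12 were called in all 10 fits within sets that left out 1 pair, among them Baiap2l1, Cwc22, Gm14444, Gm12628, Plb1, Lgals4 and Pop4. Baiap2l1, an adaptor protein that shapes actin at the membrane, is at chr5:144264525-144358112. Its signal was 6.28, 8.60 and 13.03 (lowest, median, highest) in GM501 twins and 6.50, 8.68 and 13.09 in SAGE twins, against 7.46, 10.28 and 12.83 in controls. Each of the 3 groups spread over more than 5 log2 units, and the groups overlapped. Co-twins differed by a median of 0.53 log2 units, against 3.53 between mismatched twins, and correlated at r = 0.95 over all pairs and within sets (adjusted p within sets = 0.000185).

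Elobl, a relative of the elongin B gene at chr11:88964658-88966931, also took far-apart values. It stood at 6.22, 12.73 and 13.85 in GM501 twins and 6.80, 12.15 and 13.59 in SAGE twins, against 7.49, 12.40 and 12.81 in controls. The 4 lowest arrays of each medium belonged to the same 4 pairs (r = 0.92, within sets 0.86, adjusted p within sets = 0.0147, and 0.216 without pair 9). Bst2, the interferon-inducible antiviral protein tetherin, ranged from 7.04 to 13.79 in GM501 twins and 6.16 to 13.21 in SAGE twins, against 6.70 to 12.10 in controls, with r = 0.81 over all pairs and 0.82 within sets (adjusted p within sets = 0.0353). Its call within sets held in 5 of 10 fits without 1 pair, with an adjusted p of up to 0.248. Plb1, a phospholipase, had r = 0.93 within sets. Lgals4, a galectin, and Pop4, a subunit of ribonucleases P and MRP, had r = 0.94 and 0.95. Prkag1, a regulatory subunit of AMP-activated kinase, stood at 5.77, 11.79 and 13.07 in GM501 twins and 6.24, 11 and 12.72 in SAGE twins, against 11.27, 11.89 and 12.42 in controls. Its adjusted p within sets was 0.0119, and 0.526 without pair 4. Others on the list were Ptgr1, which reduces prostaglandins, Cd59b, a complement inhibitor, Stom, the membrane protein stomatin, Ephx2, an epoxide hydrolase, Wrn, a DNA helicase, and Mrpl46. Their calls held in 1 (Mrpl46), 4 (Wrn), 7 (Cd59b and Ephx2) and 8 (Ptgr1 and Stom) of the 10 fits.

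**Figure D4:**
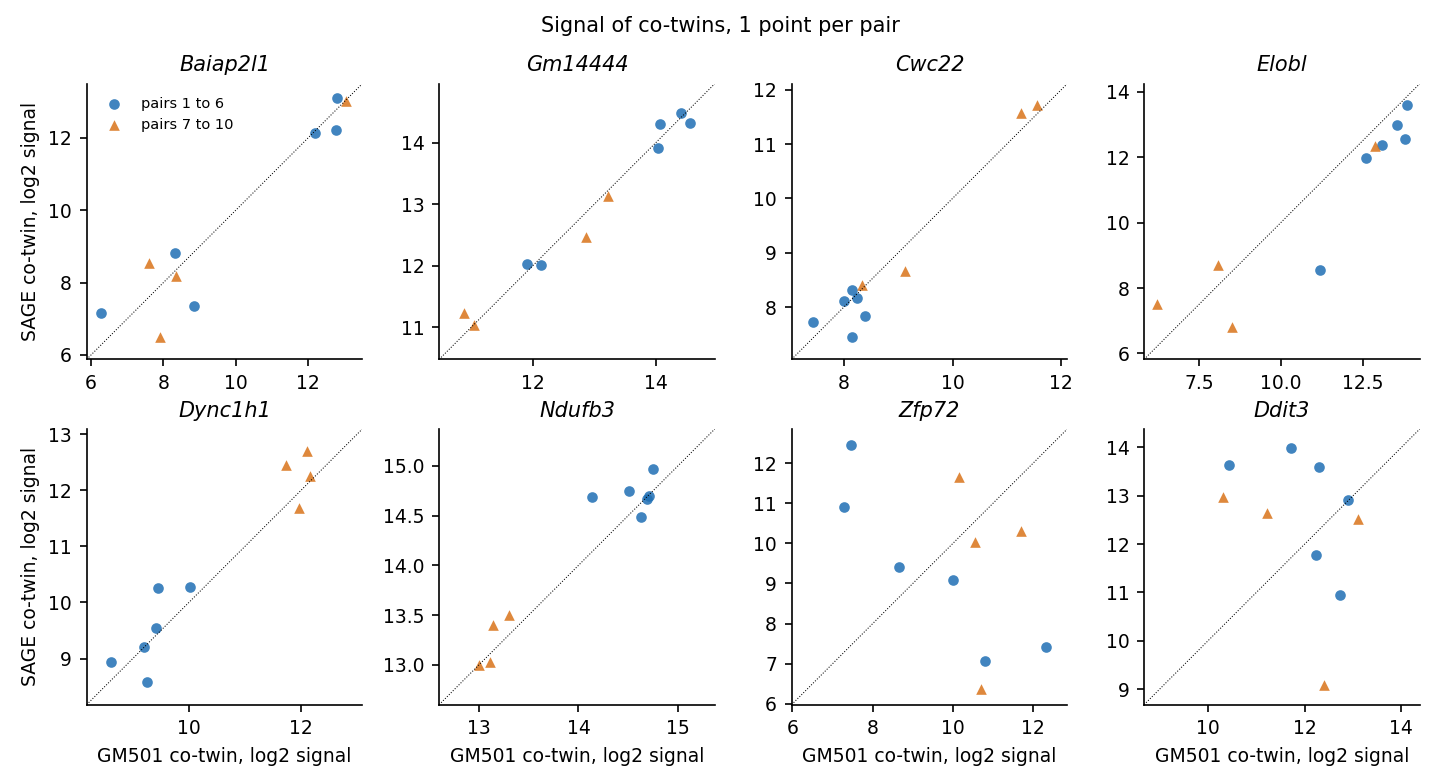
Log2 signal of the GM501 co-twin (horizontal axis) against that of its SAGE co-twin (vertical axis) for 8 genes, 1 point per pair, with pairs 1 to 6 as circles, pairs 7 to 10 as triangles and equality as a dotted line. Baiap2l1, Gm14444 and Elobl spread along the line in both sets and Cwc22 in pairs 7 to 10, where 2 pairs lie far above the rest, Dync1h1 and Ndufb3 fall into the 2 sets, and Zfp72 and Ddit3 leave the line (r = -0.60 and -0.39).

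Neighbours on a chromosome were called together. The 51 genes fell into 37 places when genes within 2 Mb were joined, and 4 places with more than 1 gene held 18 genes. The largest was chr2:175016710-178035859, with 7 genes: Gm14444, Gm14393, Gm14421, Gm14400, Gm14403, Gm14406 and Zfp971, of which the last bears a zinc finger gene name. Gm14444 had the smallest p within sets of all autosomal genes (adjusted p = 5.82e-05). It stood at 10.88, 13.04 and 14.56 in GM501 twins and 11.04, 12.80 and 14.49 in SAGE twins, against 10.90, 11.36 and 13.60 in controls. Co-twins differed by a median of 0.12 log2 units, against 1.46 between mismatched twins (r = 0.99, within sets 0.98). Zfp971 at chr2:178023284-178035859 had r = 0.91 and within sets 0.89, with its call kept in 6 of 10 fits without 1 pair (adjusted p up to 0.337). Across the 10 pairs, the pair means of the 7 genes correlated at a median r of 0.91 (0.68 to 0.99). Across the 10 controls, whose values had no part in the calls, they correlated at a median r of 0.88 (0.64 to 0.98). Both are descriptions, since neighbouring copies of a family may bind the same probes.

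How alike the copies are can be read from their starts, shown as the 250 bases before and, in capitals, the 50 bases after the start that the RefSeq promoter table on GRCm38.p6 gives, 5′ to 3′. Zfp971 is read on the plus strand of chr2:178023034-178023333, Gm14403 on the plus strand of chr2:177497976-177498275 and Gm14393 on the minus strand of chr2:175067720-175068019, a start inside the annotated span of that gene (175057954 to 175150705) and not at its end.
Zfp971: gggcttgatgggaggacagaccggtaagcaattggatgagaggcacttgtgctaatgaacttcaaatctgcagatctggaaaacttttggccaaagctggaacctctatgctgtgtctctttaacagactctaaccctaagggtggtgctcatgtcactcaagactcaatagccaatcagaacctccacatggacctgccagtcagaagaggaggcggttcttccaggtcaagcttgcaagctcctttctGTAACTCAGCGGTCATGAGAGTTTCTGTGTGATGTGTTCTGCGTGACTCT
Gm14403: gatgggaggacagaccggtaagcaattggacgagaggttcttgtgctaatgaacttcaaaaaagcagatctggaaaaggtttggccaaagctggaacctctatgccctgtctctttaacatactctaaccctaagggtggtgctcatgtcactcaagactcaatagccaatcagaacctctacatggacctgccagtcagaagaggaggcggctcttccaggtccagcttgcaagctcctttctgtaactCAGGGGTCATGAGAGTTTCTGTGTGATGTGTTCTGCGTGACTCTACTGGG
Gm14393: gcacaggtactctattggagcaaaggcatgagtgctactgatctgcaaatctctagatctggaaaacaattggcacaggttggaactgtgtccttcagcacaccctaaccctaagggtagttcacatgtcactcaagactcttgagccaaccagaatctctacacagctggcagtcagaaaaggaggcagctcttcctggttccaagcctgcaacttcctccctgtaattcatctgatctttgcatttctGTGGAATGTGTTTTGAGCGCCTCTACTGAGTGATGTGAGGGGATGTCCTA
Zfp971 and Gm14403 matched at 279 of 294 aligned bases (94.9%), and Zfp971 and Gm14393 at 208 of 272 (76.5%). Signals of such copies are uncertain as measures of any single one of them.

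On chromosome 11, 6 pseudogenes or predicted genes between 60560870 and 60674474 moved as 1. Their pair means correlated at r = 0.977 or more, their control values at 0.986 or more, and Gm12614 and Gm12624 held identical signals on every array. Gm12628, the member with the smallest p, had 11.24, 14.04 and 15.98 in GM501 twins and 10.86, 13.50 and 16.09 in SAGE twins, against 11.61, 14.29 and 14.88 in controls (within sets r = 0.93, adjusted p = 0.00156). The other places were on chromosome 14, with Gm5798, Gm6536 and Gm6526, and on chromosome 7, with Lypd10 and Ceacam10. The correlation of Lypd10 with Ceacam10 was weaker, at r = 0.37 across pair means and 0.42 across controls.

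Cwc22, a splicing factor at chr2:77881159-77946356, had r = 0.97 over all pairs and 0.94 within sets (adjusted p within sets = 0.00156). As background, Cwc22 lies in a segment of the mouse genome whose copy number differs between strains. Its signal was 7.44, 8.30 and 11.56 in GM501 twins and 7.45, 8.24 and 11.71 in SAGE twins, against 7.83, 9.10 and 11.69 in controls. In each medium the 2 highest arrays stood more than 2 log2 units above the rest, and they belonged to the same 2 pairs. In pairs 1 to 6 all 12 arrays lay between 7.44 and 8.39. Gm13691 at chr2:83990465-83993518, some distance away on the same chromosome, tracked Cwc22 at r = 0.95 across pair means and 0.997 across controls, and kept its call within sets in 3 of 10 fits without 1 pair. Of 14 genes listed for known copy number or null alleles of mouse strains, 3 were called over all pairs (21.4%) and none within sets. Glo1, whose duplication is known in laboratory mice, was 1 of the 3 (r = 0.77, within sets 0.54).

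Among the 51 were 2 microRNA genes, Mir7669 and Mir882. Their mature sequences from RefSeq on GRCm38.p6 are given 5′ to 3′ with the seed, bases 2 to 8, in capitals, and show that the 2 share no seed. The first lies on the minus strand at chr3:90011188-90011210 and the second on the plus strand at chr12:109682207-109682228.
mmu-miR-7669-5p: aGUACCACcauacacagcuuuug
mmu-miR-882: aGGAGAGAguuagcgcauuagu
The array was read from labelled total RNA, so a cluster of this kind may also read a longer transcript that contains the hairpin. Mir7669 stood at 6.86, 8.05 and 10.81 in GM501 twins and 6.62, 7.93 and 10.39 in SAGE twins, against 6.73, 7.95 and 9.37 in controls (within sets r = 0.97, adjusted p = 0.000226, and 0.154 without pair 4). Mir882 stood at 4.85, 5.70 and 7.59 in GM501 twins and 4.73, 5.61 and 7.35 in SAGE twins, against 5.03, 6.65 and 8.03 in controls (within sets r = 0.91, adjusted p = 0.008, and 0.114 without pair 7). In both genes co-twins lay closer to each other than mismatched twins did, at medians of 0.23 against 0.68 log2 units for Mir7669 and 0.17 against 0.94 for Mir882.

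Unsplit control embryos give a view of these genes that the pairing did not use. Genes called within sets had a median SD of 0.77 log2 units over the 10 controls, against 0.25 in the other genes, and 33 of the 51 (64.7%) were in the upper 10% of autosomal genes by that SD. The 51 are not independent, since 18 of them lie in 4 places with more than 1 gene. Their median SD within media was also larger in twins, at 1.02 against 0.48, and control SDs were not compared at equal SD in twins. In each of 5 equal groups by level the called genes had the larger median SD, for example 1.18 against 0.33 in the fourth and 0.74 against 0.24 in the brightest. Genes called over all pairs showed no such spread: their median control SD was 0.26, against 0.25 in genes not called, and 453 of 4374 (10.4%) were in the upper 10%. Prkag1 was among the rest of the 51, with a control SD of 0.33, and Dync1h1 and Ndufb3 had control SDs of 0.28 and 0.22 while their twins ranged over more than 4 and almost 2 log2 units.

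**Figure D5:**
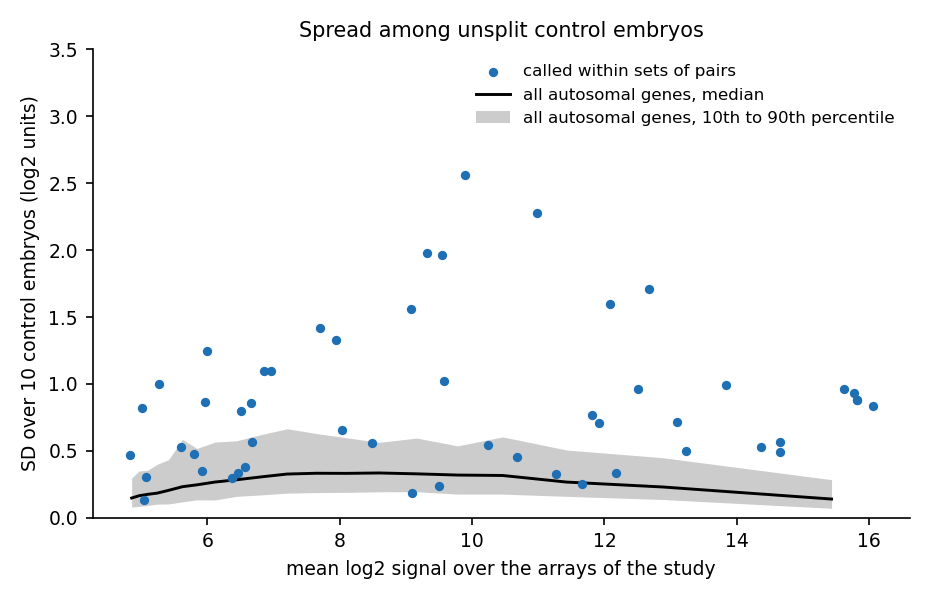
SD of the log2 signal over 10 unsplit control embryos (vertical axis) against the mean log2 signal over all arrays (horizontal axis); points are the 51 genes called within sets, the line is the median and the band the 10th to 90th percentile of all autosomal genes. The points have a median SD of 0.77, against 0.25 for the other genes.

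At the other end were variable genes with a co-twin r below 0. Among the 10% of autosomal genes with the largest SD within media, the 10 with the lowest co-twin r were Slc40a1, Zfp248, Zfp72, Vmn1r53, Pou5f2, Lcor, Zfp991, Ddit3, Brox and Olfr153, with r from -0.61 to -0.38. These genes were chosen by that value, so it is a description. By median difference, co-twins were closer than mismatched twins in Lcor (0.32 against 0.61 log2 units) and Vmn1r53 (1.38 against 1.53). In the rest of the 10 genes co-twins were further apart than mismatched twins. The rank correlation of Lcor was -0.13. Zfp72, a zinc finger gene, stood at 7.28, 10.34 and 12.31 in GM501 twins and 6.38, 9.72 and 12.45 in SAGE twins, against 9.12, 10.46 and 11.03 in controls. Its co-twins differed by a median of 2.63 log2 units, against 1.80 between mismatched twins. Slc40a1, the iron exporter ferroportin, stood at 4.84, 5.65 and 6.76 in GM501 twins and 4.77, 5.56 and 9.05 in SAGE twins, against 5.61, 6.76 and 9.38 in controls. Ddit3 stood at 10.31, 12.27 and 13.10 in GM501 twins and 9.08, 12.78 and 13.98 in SAGE twins, against 12.78, 13.21 and 13.93 in controls. The GM501 median lay below all controls, and the SAGE median was at the level of the lowest control. The lowest GM501 and the lowest SAGE array belonged to different pairs. Co-twins differed by a median of 1.43 log2 units, against 0.91 between mismatched twins.

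Several functions had few called genes, which can be set beside the share of called genes at their level; none of these differences was tested. No gene was called among 10 heat shock genes, whose median level of 12.03 falls in the brightest of the 5 groups (42.5% called), and none among 15 p53 targets, at a median level of 7.44 in the middle group (25.6% called). The p53 targets still had r above 0 within sets in 15 of 15 cases with a median of 0.26, whereas the heat shock genes had a median of 0.05. Hypoxia response genes were called in 1 of 12 cases (8.33%), in a group with 35.2% called. Of 41 Trim genes 3 were called (7.32%) and of 301 Zfp genes 44 (14.6%, median r 0.28), both at levels of the middle group. MHC genes were called in 2 of 21 cases (9.52%), at a level where 10.5% of genes were called, and maternal transcripts in 4 of 20 (20%), at a level where 15.5% were. Dppa3, an oocyte factor that protects the maternal genome from demethylation, was 1 of these 4, at r = 0.78 over all pairs and 0.62 within sets.

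The block of pairs entered the comparison of the media. The median standard error of a gene's GM501 minus SAGE difference was 0.149 log2 units with the pair as a block and 0.210 without it. No autosomal gene was called between media either way by limma with Benjamini-Hochberg adjustment, with 641 genes at an unadjusted p under 0.05 with the block and 205 without it. Both counts lie below the 845 genes that chance alone would give. The smallest adjusted p was 0.583 with the block.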

How the data were processed

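Each blastocyst's RNA was amplified and biotinylated by the WT Pico method and read on 1 Affymetrix array, per the labels' protocols. The authors deposited log2 signals of 65956 transcript clusters, for which the submitters' processing notes name RMA, Affymetrix Expression Console and mm10, with versions not given in the sources used here. This method corrects background, normalizes arrays to a common distribution and summarises probes. No label states the base of the logarithm, and 2 was inferred from the values. The number of arrays limits the precision.

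Clusters with 1 gene symbol (30604; 2146 had several and were not used) were named through the platform annotation and RefSeq (GRCm38.p6). The brightest cluster stood for a gene, which left 30063 genes. Genes under the 60% with the highest mean signal were dropped, and 18038 with means from 4.81 upward remained. The pair effect was tested with limma 3.58.1 in R 4.3.3 (moderated F over the pair coefficients, medium in the model, Benjamini-Hochberg over the 18038 genes, threshold 0.05). Pairs are given by the numbers in the titles, which name the embryo. Co-twin correlation across genes was above 0.1 in 10 of 10 pairs. Mismatched couples of the same set had a median of 0.24, so that cut does not tell co-twins from them. Covariances were tested by permuting partners. The F test of the pair effect was also run on simulated data, with residual SDs taken from the fit to the real data. The members, sets of pairs, gene lists and tests were chosen with earlier results of these data known.

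Leaving aside predicted genes, pseudogenes and small RNAs, named genes were the 12 called genes with the smallest p, up to 3 called members of each list, the 10 most variable genes with the lowest co-twin r, and Cdx2, Pou5f1, Nanog, Sox2 and Gata6. Predicted and small RNA genes and the genes called within sets were named after their values were seen. Alternatives were the level filter, cluster choice, array centring, covariates, sets of pairs, each pair left out, and fitting options. Promoters were aligned with biopython 1.88.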

Additional observations from a re-analysis of the deposited data

Results flagged for a closer look

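In 32 genes whose signals are given, the lowest and highest arrays of the 10 GM501, 10 SAGE and 10 control arrays were compared with the rest of their group, and 8 of 96 groups held an array set apart by more than 0.466 of the group's range (Dixon's limit for 10 samples). Chance flags about 1 group in 20. Mir7669 had its highest signal far above the next in both media, at 10.81 against 8.72 in GM501 twins and 10.39 against 8.32 in SAGE twins. Prkag1 had its lowest far below the next in both media, at 5.77 against 9.38 in GM501 twins and 6.24 against 9.69 in SAGE twins. Sox2 had 1 GM501 array at 8.92, with the next at 7.43, and Gata6 1 GM501 array at 10.45, with the next at 11.50. Among controls, Pop4 had 1 array at 10.12, with the next at 11.98, and Cldn4 1 at 15.01, with the next at 15.81.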

How the results depend on the processing

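The excess covariance of co-twins over mismatched couples kept its direction and stayed under a p of 0.05 in every alternative run, from 0.0249 (p = 0.0233) with the first principal component as a covariate to 0.398 (p = 4e-05) in genes scaled to unit variance, a scale of its own. In pairs 7 to 10 alone it was 0.0462 with an exact p of 0.0417, the smallest that 4 pairs allow. Leaving out 1 pair gave 0.150 to 0.180 over all pairs and 0.0372 to 0.0480 within sets (exact permutation p up to 0.00174). The count of called genes, 4374, depended on array-wide terms: it was 1467 with the array median as a covariate, 148 with the first principal component, 51 with the sets as a term, 17 in pairs 1 to 6 alone and 9 in pairs 7 to 10 alone. The last 2 fits have fewer samples, and for the others the cause was not tested. Leaving out 1 pair gave 2907 (without pair 10) to 5860 genes. The count within sets, 51, was 27 (without pair 10) to 71 with 1 pair left out and 10 with the Xist signal, which co-twins share at r = 0.98, as a covariate; the cause was not tested. Of the 51 genes, 12 were called in all 10 fits without 1 pair (among them Baiap2l1, Cwc22, Gm14444, Lgals4, Plb1 and Pop4), and 43 with the first principal component as a covariate. The median co-twin r, 0.45, was 0.40 with arrays centred on their medians, 0.17 with the array median and 0.11 with the first principal component as a covariate, 0.19 within sets, 0.21 in pairs 1 to 6 alone, 0.24 in pairs 7 to 10 alone, and 0.41 to 0.53 with 1 pair left out. Treating the pair as a random replicate block gave a consensus correlation of 0.43. Without the replicate block the comparison of media called 0 genes, as with it. Of 160 named genes called over all pairs, 15 had a co-twin r above 0 over all pairs and below 0 within sets, among them Trim28, Mrpl55, Pou5f1 and Fasn. The 160 genes include the 51 called within sets, which were named for that call, so counts over the 160 describe a chosen group. With the sets as a term 109 of the 160 were no longer called, a number fixed by that choice. With the first principal component as a covariate 113 were no longer called. Of all 4374 autosomal genes called over all pairs, 51 stayed called with the sets as a term and 122 with the first principal component. The within-set alternatives were chosen after seeing the data.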

Other observations

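Clusters without a single gene symbol were fitted apart, over all 10 pairs, after a level filter of their own (the brightest 60%) and without regard to chromosome, and 2536 of 21211 (12%) were called. The share differs in filter, level and chromosomes from that of the named autosomal genes and was not compared with it.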
